A study of Mus musculus with 6 samples.

Results

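BMP and activin signaling genes were examined in mammary tumors of NeuT/ATTAC mice. They are 10 genes taken by name: the BMP ligands Bmp2, Bmp4 and Bmp7, the activin subunits Inhba and Inhbb, the secreted antagonists Grem1 and Fst, and the targets Id1, Id2 and Id3. All 10 were found, each under a single Ensembl gene ID, among the 54532 gene IDs listed for every tumor. The rule used names and no measured value.

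NeuT/ATTAC mice, on the FVB strain, hold an Erbb2 transgene (MMTV-NeuT) driven by a mammary promoter, and a transgene (FAT-ATTAC) that makes fat cells sensitive to the dimerizing drug AP20187. Both groups carried both transgenes and were given AP20187 at 0.4 mg/kg from week 6 of age, which was done to induce mammary fibrosis. Injections of 100 μg of a matching IgG (3 libraries) or of an anti-PD-1 mAb (3 libraries), given 2 times per week, began at week 8. Each group has 3 RNAseq libraries, and the comparison asks how blocking the immune checkpoint receptor PD-1 changed tumor gene expression in mice with mammary fibrosis. The labels number the libraries as replicates of tumor RNA and do not say whether they came from separate mice, and the study describes the RNA of a group as pooled before sequencing. A library is called a tumor here, but it may hold RNA of several tumors, and every n, SD and p-value then measures the spread between libraries, which may be technical. No tumor from a mouse without AP20187 or without an antibody was analysed here.

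BMPs and activins are secreted dimers of the TGF-β superfamily that bind pairs of type I and type II serine/threonine kinase receptors. BMP receptors activate Smad1, Smad5 and Smad9, activin receptors activate Smad2 and Smad3, and both groups share Smad4. Gremlin 1, encoded by Grem1, traps BMP2, BMP4 and BMP7, and follistatin, encoded by Fst, traps activins and some BMPs. Id genes are typical targets of BMP signaling, and their products bind E proteins and keep them from binding DNA. In the mammary gland, Id2 is needed for alveolar development in pregnancy and Inhbb for normal duct growth and nursing.

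Upstream sequences are shown for Inhbb and Id2, since these were the members with an unadjusted p under 0.05, both lower in anti-PD-1 tumors. RefSeq promoter windows for GRCm38.p6, from 250 bases before to 50 bases after a transcription start, were matched for 6 of the 10 members, that is, all but Bmp2, Bmp7, Fst and Id1. The Inhbb stretch is chr1:119422249-119422498 on the minus strand, the 250 bases before its start. For Id2 it is chr12:25096254-25096342 on the minus strand, from 250 to 162 bases before its start, since the 161 bases that follow lie in annotated Id2 exons. This RefSeq start is not the 5′ end of the gene in GENCODE, which is at 25097140, so the printed stretch lies inside the annotated Id2 gene, outside its exons. Capitals mark GTCT or its reverse complement AGAC, the core letters of a Smad box, and GGCGCC, the letters of a GC-rich BMP response element.
Inhbb: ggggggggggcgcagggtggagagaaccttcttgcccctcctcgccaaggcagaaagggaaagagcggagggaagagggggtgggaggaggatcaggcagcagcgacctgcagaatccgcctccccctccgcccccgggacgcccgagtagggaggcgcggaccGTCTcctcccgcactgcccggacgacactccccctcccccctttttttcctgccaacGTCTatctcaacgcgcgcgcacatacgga
Id2: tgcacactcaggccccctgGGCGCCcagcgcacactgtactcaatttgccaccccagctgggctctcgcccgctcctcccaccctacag
The Inhbb window held GTCT 86 and 29 bases before the start and no GGCGCC. The Id2 window held GGCGCC 231 bases before the start and AGAC 23 bases before it, the latter outside the printed stretch. Of 32544 promoter windows of the same length, 88% held GTCT on either strand and 11.9% held GGCGCC. These matches describe letters only and mark no binding site.

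The values are FPKM (fragments scaled by the length of a gene's exons and by library size), which allow levels to be compared between genes. Values of a group are given in the order of its replicates 1, 2 and 3. The library totals implied by the smallest step between values lay between 22009893 and 25596232 reads. Luminal epithelial markers summed to between 2244 and 4045 FPKM per tumor and fibroblast markers to between 79.3 and 355, so luminal epithelial RNA was present in all of them. Basal markers were low, at 17.7 to 44.2 FPKM. Skeletal muscle markers summed to 141, 77.0 and 155 FPKM in IgG replicate 2 and in anti-PD-1 replicates 1 and 2, and to at most 5.42 in the other tumors. IgG replicate 2 also had Krt19, a luminal keratin, at 77.9 FPKM, while Krt19 reached at most 7.84 in the other tumors.

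The members spanned a wide range of levels. By mean FPKM over the 6 tumors the order was Id2 (130.4), Inhbb (67.9), Id1 (6.10), Id3 (4.68), Bmp7 (1.06), Inhba (0.893), Bmp4 (0.233), Fst (0.206), Bmp2 (0.105) and Grem1 (0.0106). Id2 was above Inhbb, Inhbb above Id1, Id3 above Bmp7 and Bmp2 above Grem1 in all 6 tumors. Id1 and Id3 kept their order in 5 of 6 tumors, as did Inhba and Bmp4, and Fst and Bmp2. Bmp7 and Inhba, and likewise Bmp4 and Fst, were in this order in only 3 of 6 tumors and did not differ beyond their spread. Among the 28732 gene IDs above 0, 98.9% had a lower mean than Id2 and 97.7% a lower mean than Inhbb, whereas for Grem1 the share was 6.60%.

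**Figure D1:**
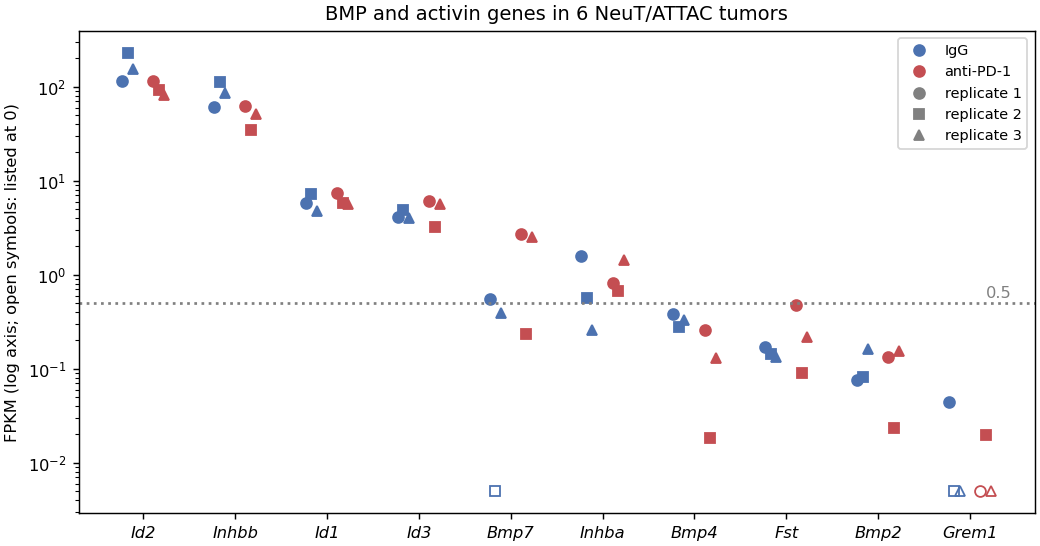
FPKM of the 10 members (log axis) in each of the 6 tumors, with IgG in blue and anti-PD-1 in red, the shape giving the replicate and open symbols marking a value listed at 0. Id2 and Inhbb lie above all other members in every tumor, and the dotted line at a mean of 0.5 FPKM is the filter that Bmp4, Fst, Bmp2 and Grem1 did not pass.

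Groups were compared on log2(FPKM + 1) with limma over the 15069 genes with a mean of at least 0.5 FPKM, a scale that understates the change of low genes. No gene of the 15069 had a limma adjusted p under 0.05, while 1848 had an unadjusted p under 0.05. With limma's voom on the reads recovered from the FPKM, 1 gene had an adjusted p under 0.05. Of the 10 members, 6 passed the filter (Bmp7, Inhba, Inhbb, Id1, Id2 and Id3) and 4 did not. Bmp7 passed only through its anti-PD-1 tumors, with an IgG mean of 0.314 FPKM. Of the 6, 2 (Inhbb and Id2) had an unadjusted p under 0.05 with lower values in anti-PD-1 tumors and none with higher values, where 6.05% of all genes tested were called lower and 6.22% higher. The median log2 fold change was 0.12 over the 6 members and 0.01 over all genes tested. In none of the 6 were the groups apart, compared with 9.3% of all genes whose anti-PD-1 tumors lay all above and 8.75% whose anti-PD-1 tumors lay all below the IgG tumors. With 3 tumors in each group, the smallest p that the exact permutation test allows is 0.1.

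Inhbb (ENSMUSG00000037035, protein-coding, GRCm38 chromosome 1 from 119415465 to 119422248) encodes the βB subunit of activin B and inhibin B. It had 61.0, 112.7 and 85.0 FPKM in the IgG tumors, against 62.5, 34.4 and 51.9 in the anti-PD-1 tumors, with between 3550 and 11509 reads behind each value. The highest value was that of IgG replicate 2 and the lowest that of anti-PD-1 replicate 2, and the groups overlapped only because IgG replicate 1 lay just under anti-PD-1 replicate 1. The mean was 86.2 ± 25.9 (SD, n = 3) in IgG and 49.6 ± 14.2 (SD, n = 3) in anti-PD-1 tumors, 1.74-fold lower. On the log2 scale the change was -0.78 (SE 0.30, unadjusted p of 0.0337 and adjusted p of 0.380 in limma), and the exact permutation test (two-sided) gave p = 0.2. Without IgG replicate 1 the log2 fold change was -1.0, and the unadjusted limma p was 0.0134. The unadjusted limma p was 0.107 without IgG replicate 2, 0.0724 without IgG replicate 3, 0.117 without anti-PD-1 replicate 2 and 0.0605 without anti-PD-1 replicate 3.

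Inhba (ENSMUSG00000041324, chromosome 13 from 16011851 to 16031621), the gene of the βA subunit of activin A, was low. Its values were 1.59, 0.567 and 0.256 FPKM in the IgG tumors, against 0.825, 0.678 and 1.44 in the anti-PD-1 tumors. The spread within the IgG tumors covered all 3 anti-PD-1 values. Its log2 fold change was 0.18 (SE 0.32, limma adjusted p = 0.841) and -0.04 without IgG replicate 3. Inhbb exceeded Inhba in FPKM by between 36.1 and 331 times in single tumors, so that most activin β subunit RNA of these 2 genes was that of Inhbb in every tumor. The ratio was 38.3, 199 and 331 in the IgG tumors, against 75.7, 50.8 and 36.1 in the anti-PD-1 tumors. Inha, which encodes the α subunit that turns β subunits into inhibins, was at most 0.480 FPKM.

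Bmp7 (ENSMUSG00000008999, chromosome 2 from 172868012 to 172940321), a BMP ligand of epithelia and kidney, had the highest mean of the 3 BMP ligands over the 6 tumors, but not among the IgG tumors, where the mean of Bmp4 was 0.330 FPKM. It had 0.554, 0 and 0.387 FPKM in the IgG tumors, against 2.71, 0.236 and 2.49 in the anti-PD-1 tumors, from 49, 0, 38, 279, 23 and 238 reads. In IgG replicate 2, a count of 0 allows up to 0.0311 FPKM (3 reads, counting error only). Anti-PD-1 replicates 1 and 3 were above all IgG tumors, and anti-PD-1 replicate 2 was within their range. The mean was 0.314 ± 0.284 (SD, n = 3) in IgG and 1.81 ± 1.37 (SD, n = 3) in anti-PD-1 tumors. Bmp7 thus passed the filter of 0.5 FPKM only through the group where it was higher, and its limma results rest on that selection. Its log2 fold change was 0.96 (SE 0.45, unadjusted p of 0.0663 and adjusted p of 0.432 in limma), and the exact permutation test gave p = 0.3. Without anti-PD-1 replicate 2 the log2 fold change was 1.48, and the unadjusted limma p was 0.00132. With any other tumor left out it lay between 0.68 (without anti-PD-1 replicate 1) and 1.10 (without IgG replicate 1), and the unadjusted limma p was between 0.0786 and 0.202. Fibroblast markers, of which none of 8 had an unadjusted p under 0.05 in limma, summed to 247, 79.3 and 114 FPKM in the IgG tumors, against 355, 95.2 and 213 in the anti-PD-1 tumors. The tumors with the least Bmp7, IgG replicate 2 and anti-PD-1 replicate 2, were also those with the lowest sum of these markers, which collagens made up for the most part. Without the 4 collagen genes the sums were 31.9, 27.4 and 23.5 FPKM in the IgG tumors and 46.7, 13.2 and 21.7 in the anti-PD-1 tumors, and IgG replicate 2 was not among the lowest. The part of fibroblasts in the Bmp7 values was not tested. In bulk tumors, fewer cells of a type and less RNA per cell cannot be told apart.

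Bmp4 (ENSMUSG00000021835, chromosome 14 from 46383520 to 46390669), a ligand of stromal and epithelial cells, had 0.384, 0.278 and 0.328 FPKM in the IgG tumors, against 0.261, 0.0183 and 0.131 in the anti-PD-1 tumors. These values came from 19, 15, 18, 15, 1 and 7 reads. The groups did not overlap, but the gap between IgG replicate 2 and anti-PD-1 replicate 1 was 0.278 against 0.261 FPKM, with 15 reads in each (exact permutation test, p = 0.1). Bmp4 did not pass the filter and was not tested with limma at this level. Bmp2 (ENSMUSG00000027358, chromosome 2 from 133552159 to 133562885), the close relative of Bmp4, had 0.0767, 0.0820 and 0.161 FPKM in the IgG tumors, against 0.132, 0.0232 and 0.154 in the anti-PD-1 tumors, from 2 to 14 reads. The groups overlapped widely in Bmp2 (exact permutation test, p = 0.9). Reads of Bmp4 could include those of Gm15217 and Gm15222, which overlap it on the opposite strand, since the sources used here do not say whether counting was by strand. The same holds for Inhba, overlapped by Gm48444 and B230303A05Rik, and for Fst, overlapped by Gm47040.

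Both antagonists were low. Fst (ENSMUSG00000021765, chromosome 13 from 114452290 to 114458951) had 0.168, 0.145 and 0.134 FPKM in the IgG tumors, against 0.477, 0.0899 and 0.220 in the anti-PD-1 tumors, from 10 to 56 reads. Anti-PD-1 tumors held both the highest and the lowest Fst value (exact permutation test, p = 0.5). Grem1 (ENSMUSG00000074934, chromosome 2 from 113746164 to 113758646) had 4 reads in IgG replicate 1, 2 reads in anti-PD-1 replicate 2 and none in the other 4 tumors, where a count of 0 allows up to 0.0283 to 0.0305 FPKM. A difference in Grem1 was not detectable at this depth. Inhbb exceeded Fst by between 131 and 776 times in FPKM.

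Id2 (ENSMUSG00000020644, chromosome 12 from 25093799 to 25097140) was by far the most abundant Id gene, with between 87.8% and 95.0% of the summed FPKM of Id1, Id2 and Id3 in every tumor. It had 113.8, 227.8 and 153.6 FPKM in the IgG tumors, against 113.9, 92.2 and 81.3 in the anti-PD-1 tumors, with between 4708 and 13330 reads behind each value. IgG replicate 2 was the highest tumor, IgG replicate 1 and anti-PD-1 replicate 1 had nearly the same value, and the groups overlapped by that pair alone. The mean was 165 ± 57.9 (SD, n = 3) in IgG and 95.8 ± 16.6 (SD, n = 3) in anti-PD-1 tumors, 1.72-fold lower. Its log2 fold change was -0.73 (SE 0.28, unadjusted p of 0.0338 and adjusted p of 0.380 in limma), and the exact permutation test (two-sided) gave p = 0.2. Without IgG replicate 1 the log2 fold change was -0.97, and without IgG replicate 2 it was -0.48. The unadjusted limma p was 0.0934 without IgG replicate 2, 0.0600 without IgG replicate 3, 0.0843 without anti-PD-1 replicate 2 and 0.11 without anti-PD-1 replicate 3.

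Id1 and Id3, which also encode dominant-negative partners of E proteins, did not pass the unadjusted threshold. Id1 (ENSMUSG00000042745, chromosome 2 from 152736251 to 152737410) had 5.76, 7.15 and 4.73 FPKM in the IgG tumors, against 7.44, 5.87 and 5.63 in the anti-PD-1 tumors, a log2 fold change of 0.10 (SE 0.19, limma adjusted p = 0.861). Id3 (ENSMUSG00000007872, chromosome 4 from 136143497 to 136145755) had 4.11, 4.89 and 4.03 FPKM in the IgG tumors, against 6.13, 3.22 and 5.69 in the anti-PD-1 tumors, a log2 fold change of 0.14 (SE 0.23, limma adjusted p = 0.831). In both genes the groups overlapped, and the sign turned without anti-PD-1 replicate 1, with log2 fold changes of -0.01 for Id1 and -0.00014 for Id3. Without IgG replicate 3 the log2 fold change of Id1 was -0.03. Id3 lies on chromosome 4, where the median log2 fold change over 926 tested genes was -0.40, and the part of this shift in the Id3 values was not tested. The ratio of Id2 to Id1 was 19.8, 31.9 and 32.5 in the IgG tumors, against 15.3, 15.7 and 14.5 in the anti-PD-1 tumors, so that every IgG tumor had more Id2 per Id1 than every anti-PD-1 tumor, a ratio given without a test. Id2 relative to Id3 was 27.7, 46.6 and 38.2 in the IgG tumors, against 18.6, 28.6 and 14.3 in the anti-PD-1 tumors, where the groups overlapped.

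**Figure D2:**
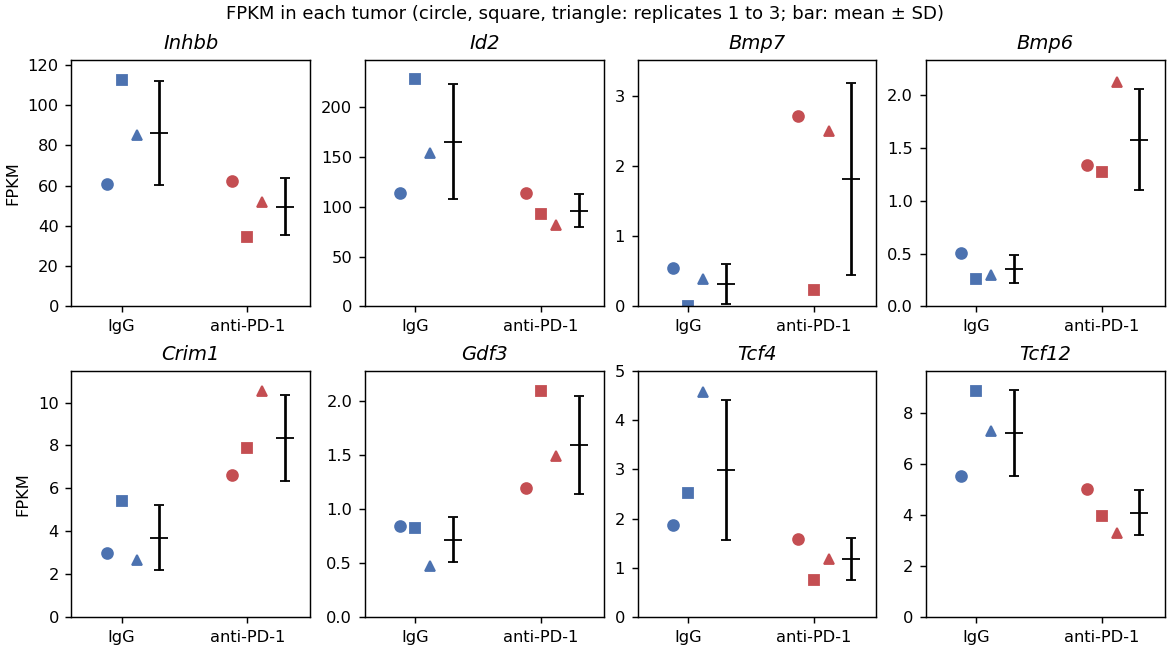
FPKM of the members Inhbb, Id2 and Bmp7 and of 5 genes of the wider pathway list in each tumor, with IgG in blue, anti-PD-1 in red, the shape giving the replicate and black bars the mean ± SD of 3 tumors. IgG replicate 1 lies next to anti-PD-1 replicate 1 in Inhbb and Id2, whereas the groups do not overlap in Bmp6, Crim1, Gdf3, Tcf4 and Tcf12.

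Luminal epithelial markers were considered beside Inhbb and Id2. Their sum was 3082, 2798 and 2244 FPKM in the IgG tumors, against 3116, 3216 and 4045 in the anti-PD-1 tumors. Without Epcam the sums overlapped, at 2197, 1938 and 1554 FPKM in the IgG tumors and 2128, 2066 and 2924 in the anti-PD-1 tumors. Of the 8 luminal markers, 5 had a log2 fold change above 0 and 3 below it (Krt19 at -2.03, Elf5 at -0.60 and Cdh1 at -0.34), with a median of 0.37, and Krt19 alone had an unadjusted p under 0.05 in limma. Endothelial markers, considered since Id1 and Id3 are known from blood vessels, summed to between 18.9 and 25.2 FPKM in IgG and between 11.7 and 22.8 in anti-PD-1 tumors, and none of 8 had an unadjusted p under 0.05. All 8 had a log2 fold change below 0, from -0.54 to -0.17, with a median of -0.25. Of the 8 basal markers 7 were tested, 6 with a log2 fold change below 0 and Acta2 with one above it. Their median was -0.42, and Krt17 alone had an unadjusted p under 0.05 in limma, with lower values in anti-PD-1 tumors. T cell markers were low, with 1 of 8 tested. They summed to 2.08, 6.29 and 2.71 FPKM in the IgG tumors and 1.70, 1.85 and 2.06 in the anti-PD-1 tumors, with IgG replicate 2 the highest as in Inhbb and Id2. The groups were apart only by 2.08 in IgG replicate 1 against 2.06 in anti-PD-1 replicate 3. Cd4 and Cd2 were highest in an anti-PD-1 tumor, and the other T cell markers in IgG replicate 2. The part of any of these cell types in the values of Inhbb and the Id genes was not tested.

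Across the 6 tumors, 5 pairs of members were compared on the log2 scale. Pearson's r was 0.25 for Id1 with Id2, 0.53 for Id1 with Id3, 0.01 for Id2 with Id3, 0.22 for Inhba with Fst and 0.15 for Bmp4 with Grem1. Spearman's rho was 0.26, 0.43, 0.03, 0.60 and 0.17 in the same order. The exact permutation p lay between 0.286 and 1.0 for r and between 0.242 and 1.0 for rho, and no pair had an adjusted p under 0.917. Without the 2 tumors farthest from the median of the first gene, r was -0.82, -0.05, 0.24, 0.25 and 0.86. The last value, for Bmp4 with Grem1, rests on IgG replicate 1, the only tumor kept with any Grem1 (4 reads). The pair of Inhbb and Id2 was picked after their values were seen and is described without a test, with r = 0.90 and rho = 0.94. In this pair r was 0.97 when the 2 farthest tumors (replicate 2 of either group) were left out, and 0.77 for the deviations from the group means.

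The other genes of the pathway were taken as a list of 71 genes in 8 roles, of which 65 were above 0 in at least 1 tumor and 36 passed the filter. Of these 36, 3 (Bmp6, Gdf3 and Crim1) had an unadjusted p under 0.05 with higher and 2 (Tcf4 and Tcf12) with lower values in anti-PD-1 tumors, against the 6.22% and 6.05% of all genes tested, and the median log2 fold change was -0.01. Among the 36, groups did not overlap in 5 genes that were higher (these 3, Bmper and Smad7) and 3 that were lower (these 2 and Acvr2a) in anti-PD-1 tumors, beside 9.3% and 8.75% of all genes tested. Bmp3 and Dlx3, which did not pass the filter, were also lower in every anti-PD-1 tumor than in every IgG tumor. The shares above are over tested genes and do not cover Bmp3, Dlx3 or the member Bmp4, and Dlx3 had only 2 to 27 reads. The lowest limma adjusted p on the list was 0.344. Bmp6 and Bmper, both among the genes that were higher, had IgG means of 0.350 and 0.328 FPKM. They passed the filter of 0.5 FPKM only through their anti-PD-1 tumors, and a gene this low in both groups would not have been counted.

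Among ligands, 2 of 11 further BMP family genes and 1 of 10 genes of activins, inhibins and their relatives were tested. Bmp6 (chromosome 13 from 38345107 to 38500302), a BMP known for its part in liver iron sensing, had 0.501, 0.256 and 0.294 FPKM in the IgG tumors, against 1.34, 1.27 and 2.13 in the anti-PD-1 tumors. Every anti-PD-1 tumor was above every IgG tumor, from 24 to 43 reads in IgG and 120 to 197 reads in anti-PD-1. The log2 fold change of Bmp6 was 0.92 (SE 0.22, unadjusted p of 0.00361 and adjusted p of 0.344 in limma) and ranged from 0.78 to 1.01 when single tumors were left out. The mean of Bmp6 was 0.350 ± 0.132 (SD, n = 3) FPKM in IgG and 1.58 ± 0.475 (SD, n = 3) in anti-PD-1 tumors, 4.51-fold higher. Its limma test depended on the anti-PD-1 tumors, since the IgG mean alone lay under the filter. Txndc5 overlaps Bmp6 on the opposite strand. Gdf3, a ligand known from embryonic stem cells, had 0.844, 0.825 and 0.473 FPKM in the IgG tumors, against 1.19, 2.09 and 1.49 in the anti-PD-1 tumors, from 28 to 123 reads. Its log2 fold change was 0.59 (SE 0.22, unadjusted p of 0.0291 and adjusted p of 0.373 in limma), and the unadjusted limma p was 0.0876 without IgG replicate 3, 0.0938 without anti-PD-1 replicate 2 and 0.0600 without anti-PD-1 replicate 3. Gdf5, a joint-forming ligand, had a log2 fold change of 0.30 (limma adjusted p = 0.781). Without anti-PD-1 replicate 1 it was 0.72, where the unadjusted limma p was 0.0373, and it was 0.0117, 0.17 and 0.13 when anti-PD-1 replicate 2, anti-PD-1 replicate 3 and IgG replicate 1 were left out in their turn. Gdf10 was at most 0.780 FPKM and was not tested. Bmp3, a bone-derived BMP family member that opposes other BMPs, had 0.129, 0.501 and 0.482 FPKM in the IgG tumors, against 0.0475, 0.0669 and 0.114 in the anti-PD-1 tumors, from 9 to 89 reads, and was not tested.

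Of 14 further secreted antagonists, 6 were tested. Crim1 (chromosome 17 from 78200248 to 78376592), a membrane-anchored protein with cysteine-rich repeats that bind BMPs, had 3.0, 5.43 and 2.66 FPKM in the IgG tumors, against 6.64, 7.88 and 10.5 in the anti-PD-1 tumors. All anti-PD-1 tumors were above all IgG tumors, with means of 8.35 ± 1.99 (SD, n = 3) and 3.70 ± 1.51 (SD, n = 3). Its log2 fold change was 1.02 (SE 0.27, unadjusted p of 0.00602 and adjusted p of 0.344 in limma), and it ranged from 0.86 to 1.26 when single tumors were left out. Fez2 overlaps Crim1 on the opposite strand and Gm25069 on the same strand. Twsg1, which modulates BMP binding by chordin, was the most abundant antagonist, at 33.2 ± 4.46 (SD, n = 3) FPKM in IgG and 29.3 ± 3.28 (SD, n = 3) in anti-PD-1 tumors, and its log2 fold change was -0.17 (limma adjusted p = 0.712). Cartilage markers were considered beside the ligands and antagonists that were higher, since BMPs and growth and differentiation factors act in cartilage. They summed to 405, 267 and 434 FPKM in the IgG tumors, against 733, 511 and 814 in the anti-PD-1 tumors. This separation rested on Comp, without which the sums overlapped, at 280.0, 248.97 and 338 FPKM in the IgG tumors and 342.5, 315.4 and 292.5 in the anti-PD-1 tumors. Of the 8 markers 6 were tested, and Comp and Col11a2 had an unadjusted p under 0.05 in limma with higher values in anti-PD-1 tumors. Of the 6, 5 had a log2 fold change above 0 and Sox9 one of -0.32, with a median of 0.78. Macrophage markers summed to between 215 and 386 FPKM in IgG and between 284 and 456 in anti-PD-1 tumors, and 1 of 8 (Cd68) had an unadjusted p under 0.05 in limma, with higher values in anti-PD-1 tumors. All 8 had a log2 fold change above 0, from 0.0055 for Adgre1 to 0.76 for Cd68, with a median of 0.33. The part of either cell type in the values of Bmp6, Bmp7, Gdf3 and Crim1 was not tested. The classical antagonists Nog and Chrd were at most 0.115 and 0.350 FPKM.

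**Figure D3:**
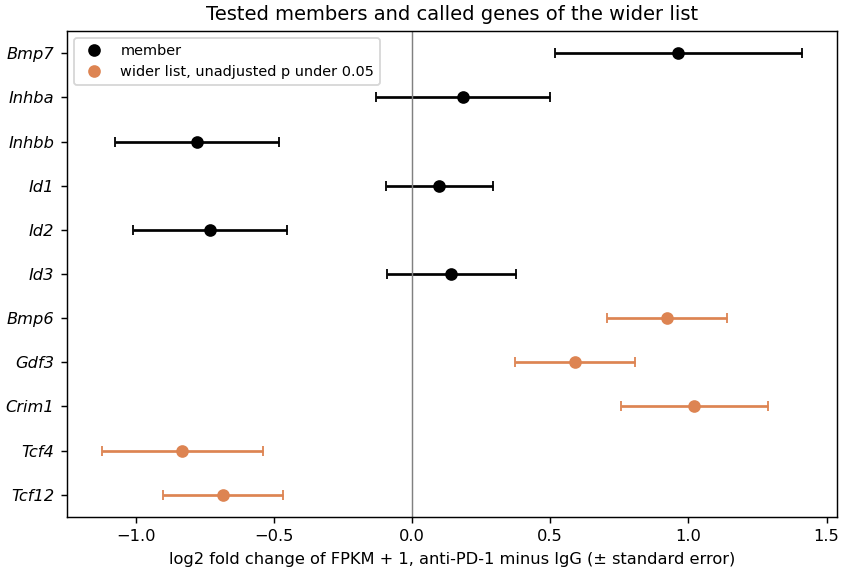
Log2 fold change of FPKM + 1, anti-PD-1 minus IgG, with its standard error, for the 6 tested members (black) and the 5 genes of the wider list with an unadjusted p under 0.05 (orange). Inhbb, Id2, Tcf4 and Tcf12 lie between -0.83 and -0.68, Bmp6 and Crim1 near 1, and Inhba, Id1 and Id3 within 1 standard error of 0.

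None of 7 tested receptors, 5 co-receptors and 9 Smads and Smurfs had an unadjusted p under 0.05 in limma. The most abundant receptors were Bmpr1a, the main type I BMP receptor, at 30.2 ± 6.11 (SD, n = 3) FPKM in IgG and 24.6 ± 2.47 (SD, n = 3) in anti-PD-1 tumors, and Acvr1b, the type I activin receptor, at 23.6 ± 8.63 (SD, n = 3) and 22.1 ± 5.05 (SD, n = 3). The log2 fold change of Bmpr1a was -0.27 (limma adjusted p = 0.600). Without IgG replicate 3 it was -0.43, where the unadjusted limma p was 0.0380, and without IgG replicate 2 it was -0.15, where it was 0.483. That of Acvr1b was -0.05 (limma adjusted p = 0.959) and changed sign with single tumors. Smad4 had a log2 fold change of -0.06, Smurf2, a ubiquitin ligase that marks receptors and Smads for degradation, one of -0.21, Rgma, a BMP co-receptor, one of -0.30 and Tgfbr3, the betaglycan that also binds inhibin, one of -0.00. The hemojuvelin gene Hjv (Hfe2 in the annotation) and Mstn, which encodes myostatin, both known from skeletal muscle, were highest in IgG replicate 2, with 43 and 73 reads, and had at most 11 reads in any other tumor. Among other BMP targets, 3 of 7 were tested and none had an unadjusted p under 0.05 in limma. Hey1 was at 100.5 ± 7.54 (SD, n = 3) FPKM in IgG and 96.7 ± 10.9 (SD, n = 3) in anti-PD-1 tumors, and Msx2 had a log2 fold change of 0.17 (limma adjusted p = 0.834).

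**Figure D4:**
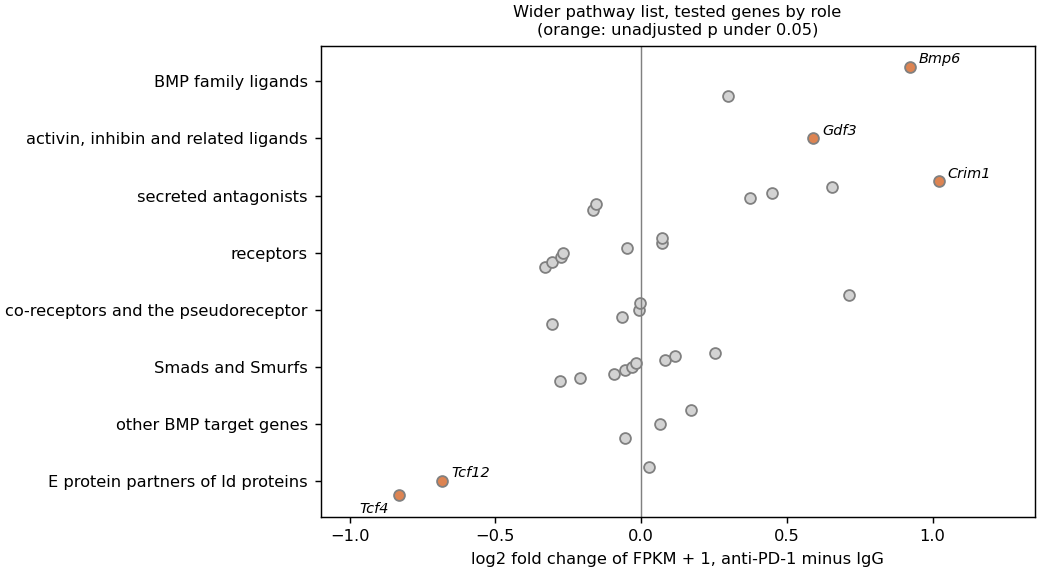
Log2 fold change of FPKM + 1, anti-PD-1 minus IgG, of the 36 tested genes of the wider list by role, with 1 point per gene. The 5 genes with an unadjusted p under 0.05 (orange) are Bmp6, Gdf3 and Crim1 on the higher side and Tcf4 and Tcf12 on the lower side, and the tested receptors, Smads and Smurfs lie between -0.33 and 0.25.

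All 3 E proteins, the partners that Id proteins bind, were tested. Tcf4 (chromosome 18 from 69343356 to 69689079) had 1.87, 2.52 and 4.58 FPKM in the IgG tumors, against 1.6, 0.748 and 1.18 in the anti-PD-1 tumors. Tcf12 (chromosome 9 from 71842688 to 72111871) had 5.50, 8.86 and 7.28 FPKM in the IgG tumors, against 5.01, 3.94 and 3.28 in the anti-PD-1 tumors. In both, every anti-PD-1 tumor lay below every IgG tumor, and IgG replicate 1 was the IgG tumor nearest to the anti-PD-1 group. The log2 fold change was -0.83 for Tcf4 (SE 0.29, unadjusted p of 0.0238 and adjusted p of 0.367 in limma) and -0.68 for Tcf12 (SE 0.22, unadjusted p of 0.0157 and adjusted p of 0.355 in limma). For Tcf4 the unadjusted limma p was 0.0712 without IgG replicate 3, 0.0753 without anti-PD-1 replicate 2 and 0.0536 without anti-PD-1 replicate 3. For Tcf12 it was 0.0551 when IgG replicate 2 and 0.0588 when anti-PD-1 replicate 3 was left out. On chromosome 9, where Tcf12 lies, the median over 798 tested genes was -0.36, and on chromosome 18, where Tcf4 lies, it was 0.01 over 374. Relative to the mean over the 6 tumors, the median chromosome 9 gene deviated by -0.13, 0.31 and 0.32 on the log2 scale in the IgG tumors, against -0.05, -0.26 and -0.27 in the anti-PD-1 tumors. The part of this shift in the Tcf12 values was not tested. Tcf3, the most abundant E protein gene, had 20.6 ± 1.6 (SD, n = 3) FPKM in IgG and 21.6 ± 7.20 (SD, n = 3) in anti-PD-1 tumors and a log2 fold change of 0.03, whose sign changed with single tumors and with quantile normalization. Tcf12 overlaps 11 annotated genes and Tcf4 overlaps Gm24845, so their reads may include those of other genes.

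**Figure D5:**
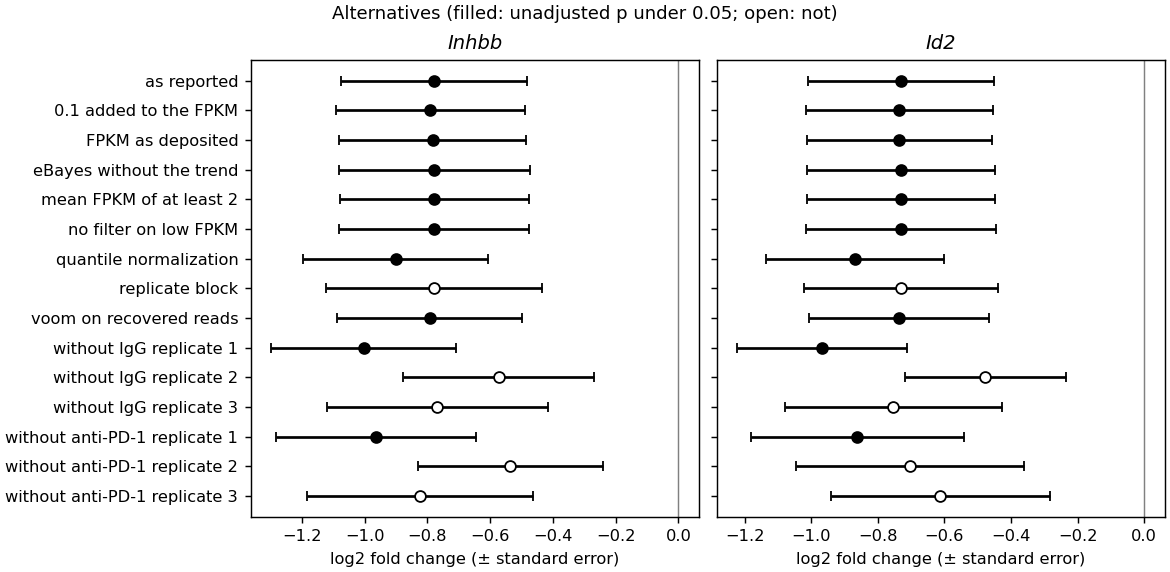
Log2 fold change of Inhbb and Id2, anti-PD-1 minus IgG, with its standard error, as reported and under 14 other settings, filled where the unadjusted p was under 0.05. Both genes stay below 0 throughout, and the unadjusted p is above 0.05 with the replicate number as a term (replicate block) and without IgG replicate 2 or 3 or anti-PD-1 replicate 2 or 3.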

How the data were processed

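RNAseq of 3 IgG and 3 anti-PD-1 tumor libraries was analyzed from the FPKM values that the authors deposited, with groups and replicate numbers from the sample titles. Per the labels and the methods, the authors used FastQC 0.11.9, cutadapt 3.5, Bowtie2 2.4.1 and RSEM 1.3.1 on mm10 (Ensembl release 99). How the FPKM was made is not given in the sources used here. Of 54532 gene IDs, 54495 matched GENCODE release M21 (GRCm38), used for symbols, coordinates and exon lengths. FPKM times merged exon length fell within 0.1 of a whole number of reads for 97.0% to 97.3% of values per tumor, which gave the reads quoted here.

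FPKM was divided by median-of-ratios factors (1.00 to 1.01), 1 was added and log2 taken. Testing of genes with a mean of at least 0.5 FPKM used limma 3.58.1 under R 4.3.3 (eBayes with trend, two-sided, Benjamini-Hochberg adjustment). The fit was tested on simulated data. DESeq2 needs counts and was not run here. Members and lists were chosen with earlier results of these data known. From the wider list, genes with an unadjusted p under 0.05 and the 2 most abundant of each role are named, other genes being named for single facts after their values were seen. Same-numbered tumors did not deviate together (r = -0.16, 0.01 and 0.19).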

Additional observations from a re-analysis of the deposited data

How the results depend on the processing

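The alternatives were each tumor left out, a replicate block, voom on recovered reads, quantile normalization, unscaled FPKM, 0.1 instead of 1 added, eBayes with no trend, and a mean of at least 2 FPKM or no filter. Among the members, the number with an unadjusted p under 0.05 was 2 as reported, 3 with quantile normalization (Bmp7 higher, at an unadjusted limma p of 0.0492, besides Inhbb and Id2), 1 with the replicate block (Bmp7, whose unadjusted limma p was 0.0204, in place of Inhbb and Id2, at 0.0692 and 0.0504) and 0 to 2 with 1 tumor left out (0 without IgG replicate 2, IgG replicate 3 or anti-PD-1 replicate 3, and 1 without anti-PD-1 replicate 2). The block changed no other call of a named gene. The tumors share only a number, and 2 of 6 correlated best with the tumor of the same number. On the wider list the number was 5 as reported, 3 with a mean of at least 2 FPKM, 8 with no filter and 2 to 7 with 1 tumor left out (2 without anti-PD-1 replicate 3 and 7 without IgG replicate 1 or anti-PD-1 replicate 1). The share of all genes with an unadjusted p under 0.05 moved as well, from 12.26% as reported to 17.81% without IgG replicate 1, 6.36% without IgG replicate 2, 10.02% without IgG replicate 3, then 10.99%, 9.37% and 7.71% when anti-PD-1 replicate 1, 2 or 3 was left out, 11.45% with the block, 13.76% with a mean of at least 2 FPKM and 8.01% with no filter. Without IgG replicate 1, 12 genes had a limma adjusted p under 0.05. Of 22 named genes tested, 13 kept their sign under every alternative that gave them a value, among them Inhbb, Id2 and Crim1 under all 14, and Bmp7 and Bmp6, whose means are under 2 FPKM, under 13. Tgfbr3 changed sign with 0.1 added (0.0003004), quantile normalization (0.0198) and voom (0.001), and Tcf3 with quantile normalization (-0.0324). With each tumor left out, the log2 fold change ranged from -0.0422 to 0.48 for Inhba, -0.0259 to 0.22 for Id1, -0.00014 to 0.38 for Id3, -0.32 to 0.21 for Acvr1b, -0.19 to 0.11 for Tgfbr3, -0.12 to 0.0407 for Smad4, -0.11 to 0.36 for Msx2, -0.14 to 0.0213 for Hey1 and -0.22 to 0.24 for Tcf3. The cause was not tested. With voom, which adds no 1 to the FPKM, the log2 fold change was 3.54 for Bmp7, 2.19 for Bmp6, 1.16 for Gdf3 and -1.31 for Tcf4. Low read numbers limit Bmp2, Bmp4, Fst and Grem1.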
